A study of Mus musculus with 4 samples.

Results

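The SOCS family consists of 8 genes, Socs1 to Socs7 and Cish. Some of its proteins are made in response to cytokines and switch cytokine signalling off again. All 8 were represented on the array, among 19938 genes with a probe set that names a single gene. The members were chosen by name, and a gene with several probe sets was read from the one with the highest mean. For Socs2 and Socs6 that probe set has ID neighbours on other chromosomes than the gene, so it may measure another locus, and their values below are those of probe sets annotated as Socs2 and Socs6. All 8 lay above the background threshold of log2 5.87, the 95th percentile of the means of 1194 olfactory and vomeronasal receptor genes, as did 12591 genes in all.

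RNA came from CD4+ CD8- thymocytes of 8-week-old C57BL/6n mice, after depletion of CD8+ cells, and each sorted population was hybridised to 1 Affymetrix Gene 1.0 ST array. The groups were miR-142-/- Qa2+ and miR-142-/- Qa2- cells from a pool of 4 mice (1 female and 3 males), and WT (miR-142+/+) Qa2+ and Qa2- cells from a pool of 5 mice (3 females and 2 males). Qa2+ cells were also CD69-, the phenotype of mature cells close to leaving the thymus, and Qa2- cells were CD69+, the phenotype of newly selected cells. The labels name no cell type to which the loss of miR-142 was limited, and all cells of a group are pooled over its mice.

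A cytokine that binds its receptor activates Janus kinases, which phosphorylate STAT transcription factors, and STATs switch on some SOCS genes as well as effector genes. Each SOCS protein carries an SH2 domain, which binds phosphorylated tyrosines of receptors or kinases, and a SOCS box, which recruits a ubiquitin ligase. SOCS1 and SOCS3 also block the kinase directly through a short inhibitory region. In thymocytes SOCS1 is known for restraining responses to interleukin-7, interleukin-15 and interferon gamma. In macrophages, the 5p strand of miR-142 has been reported to repress SOCS1.

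The sequences bear on the contrasts of the study. The mature strands of Mir142 are shown because their loss defines the miR-142-/- mice, with the seed (bases 2 to 8) in capitals. Both are RefSeq entries on GRCm38.p6, and their seeds differ.
mmu-miR-142a-5p, chr11:87756867-87756887, plus strand: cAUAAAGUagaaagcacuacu
mmu-miR-142a-3p, chr11:87756903-87756925, plus strand: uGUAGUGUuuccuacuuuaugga

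Promoters, 250 bases before to 50 bases after the annotated start, were at hand for 4 of the 8 members in the RefSeq table (GRCm38.p6). They are shown for the member with the largest stage difference, Socs3, and for Cish and Socs1, which did not pass the stage test, because STATs act on all of these genes. Capitals mark TTCNNNGAA, the core letters bound by most STATs, in Socs3 and Cish, and, in Socs1, a core of interferon response elements made of GAAA, any 2 bases and GAAA. Both motifs were searched on both strands.
Socs3 promoter, chr11:117969317-117969616, minus strand: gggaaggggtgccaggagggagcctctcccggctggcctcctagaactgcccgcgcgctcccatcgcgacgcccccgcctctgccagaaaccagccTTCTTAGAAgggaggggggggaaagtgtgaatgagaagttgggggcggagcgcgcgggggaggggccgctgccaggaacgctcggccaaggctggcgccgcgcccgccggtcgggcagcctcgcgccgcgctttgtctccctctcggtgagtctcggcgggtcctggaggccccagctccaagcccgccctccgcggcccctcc
Cish promoter, chr9:107296409-107296708, plus strand: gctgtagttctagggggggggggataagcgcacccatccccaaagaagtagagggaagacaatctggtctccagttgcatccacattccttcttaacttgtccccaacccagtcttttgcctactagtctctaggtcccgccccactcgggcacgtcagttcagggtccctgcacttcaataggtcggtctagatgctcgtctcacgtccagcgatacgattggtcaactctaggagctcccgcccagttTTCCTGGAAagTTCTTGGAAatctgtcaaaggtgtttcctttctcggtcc
Socs1 promoter, chr16:10785487-10785786, minus strand: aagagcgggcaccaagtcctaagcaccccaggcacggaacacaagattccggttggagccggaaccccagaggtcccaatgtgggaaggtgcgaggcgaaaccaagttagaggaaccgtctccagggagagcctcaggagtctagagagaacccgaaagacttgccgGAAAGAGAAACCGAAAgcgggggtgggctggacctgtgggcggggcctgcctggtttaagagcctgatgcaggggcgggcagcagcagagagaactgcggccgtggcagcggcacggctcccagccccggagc
The Socs3 window held TTCNNNGAA once, 154 to 146 bases before the start, and the Cish window held it at 2 places, at bases 1 to 9 and 12 to 20 from the start. The Socs1 window held no TTCNNNGAA but 2 overlapping copies of the interferon response core, 83 to 68 bases before the start, and the Socs4 window held neither. Of 32851 promoter windows, 8.30% held TTCNNNGAA at least once and 0.457% at least at 2 places. The interferon response core was held at least once by 3.44% and at least at 2 places by 0.225%. A match is a string of letters and no measured binding site.

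The arrays were checked against their labels. Mir142 was below background in both miR-142-/- populations (log2 4.88 in Qa2+ and 5.29 in Qa2-), against 9.41 in WT Qa2+ and 10.11 in WT Qa2- cells. Cd4 lay between 12.36 and 12.64 on all 4 arrays. Although the cells were sorted as CD8-, both CD8 genes read above background. Cd8b1 read 8.75 and 9.24 in miR-142-/- Qa2+ and Qa2- cells and 9.98 and 9.97 in WT Qa2+ and Qa2- cells. Cd8a read 7.25 and 7.33 in miR-142-/- and 7.47 and 7.53 in WT. Whether this comes from CD8+ cells was not tested. Cd69 read 10.55 and 10.55 in the miR-142-/- and WT Qa2+ cells, against 11.51 and 11.33 in their Qa2- cells, which follows the sorting entries although the free-text description given for miR-142-/- Qa2- says Qa2+. Against the labels, which give both pools mice of both sexes, Xist was below background in both miR-142-/- populations (4.83 and 5.06) and at 12.14 (Qa2+) and 12.67 (Qa2-) in WT, while the Y-linked Eif2s3y, Kdm5d and Uty were below background in WT only. Genotype and sex cannot be told apart on these arrays, which touches every comparison of miR-142-/- with WT. With 1 array per group the number of arrays limits the precision, and fewer cells of a type and less RNA per cell cannot be told apart in sorted bulk RNA.

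Between the stages, the probe sets read for Socs3 and Socs2 rose in Qa2+ cells, and the other 6 members did not pass the test. The other Socs2 probe set did not pass. The other Socs3 probe set, with stage differences of 0.15 in miR-142-/- and 0.30 in WT, was not tested alone. The test averaged the Qa2+ minus Qa2- difference over both genotypes (limma with genotype as a block, 2 pairs, Benjamini-Hochberg over 12591 genes, threshold 0.05). It called 13.1% of all genes, 4.77% as rising and 8.35% as falling, so 2 of 8 rising and 0 of 8 falling stands beside those shares. Rises were 36.3% of all calls, a split that moved to 59.9% when arrays were centred and to 56.1% with quantile normalization, with Socs3 and Socs2 rising in each case. The median stage difference of the 8 members was 0.025 in miR-142-/- and 0.09 in WT, against -0.06 and -0.06 over all genes above background. The 2 pairs are pools of mice, so the p-values do not measure the spread between mice. Without the genotype block neither gene passed (limma adjusted p = 0.30 for Socs3 and 0.34 for Socs2).

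Socs3 encodes an inhibitor that binds the shared interleukin-6 receptor chain gp130 and the Janus kinases on it. Its probe set read log2 8.97 in miR-142-/- Qa2+ and 7.46 in miR-142-/- Qa2- cells, and 8.96 in WT Qa2+ and 7.84 in WT Qa2- cells. Both Qa2+ arrays were high and nearly equal, both Qa2- arrays were low, and the stages did not overlap. The stage difference was 1.51 (2.85-fold) in miR-142-/- and 1.12 (2.18-fold) in WT. Averaged over genotypes Socs3 rose by 1.32 ± 0.12 (limma log2 difference ± SE, adjusted p = 0.00099, higher in 2 of 2 pairs). This call was carried by the brighter Socs3 probe set, and the dimmer one had stage differences of only 0.15 and 0.30, as described below.

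Socs2 encodes an inhibitor best known for restraining growth hormone signalling. Its probe set read 7.40 in miR-142-/- Qa2+ and 6.82 in miR-142-/- Qa2- cells, and 7.36 in WT Qa2+ and 6.36 in WT Qa2- cells. Both Qa2+ arrays were again above both Qa2- arrays, and WT Qa2- cells were the lowest. The stage difference was 0.583 in miR-142-/-, just under the 0.585 of a 1.5-fold difference, and 1.00 (2.00-fold) in WT. The average rise was 0.79 ± 0.12 (limma log2 difference ± SE, adjusted p = 0.0072, higher in 2 of 2 pairs), but this call was carried by 1 of 2 Socs2 probe sets, as described below. Both Qa2+ arrays exceeded both Qa2- arrays for these 2 members, a pattern found in 14.5% of all genes above background, and for no member did both Qa2+ arrays lie below both Qa2- arrays, a pattern found in 31.0%.

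**Figure D1:**
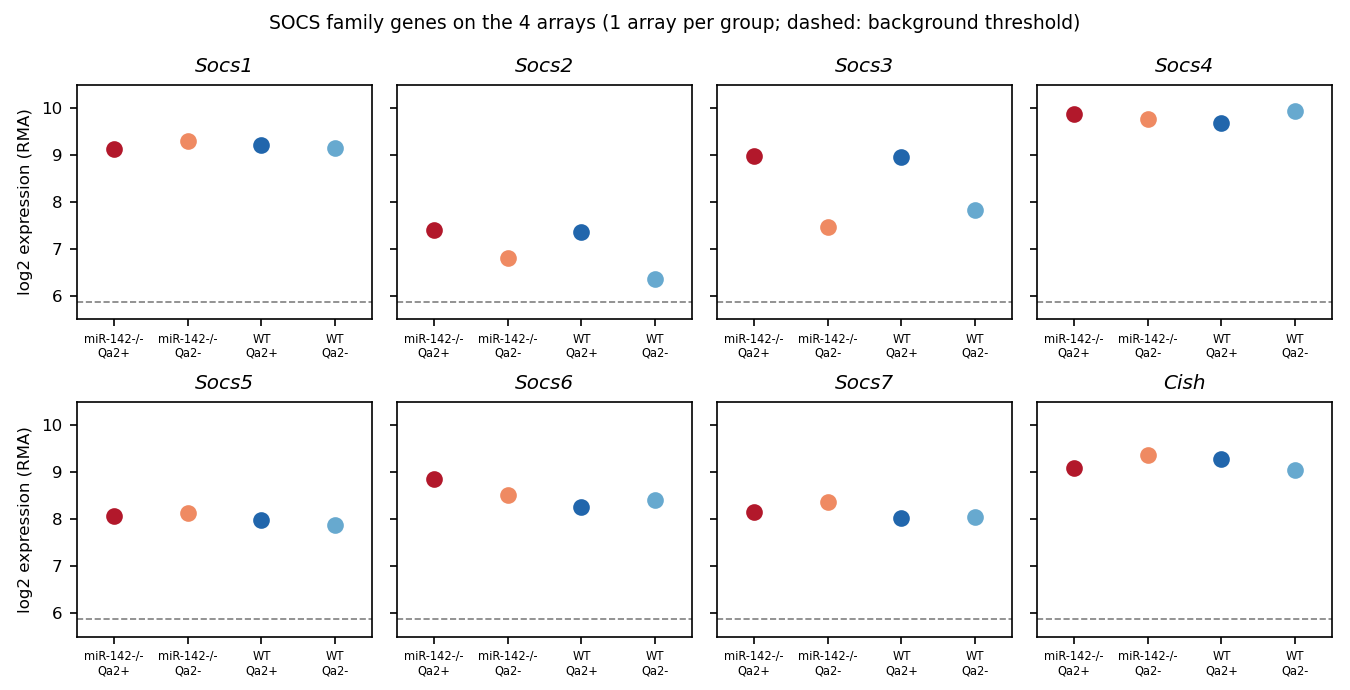
Log2 expression (vertical axis) of the 8 SOCS family genes on the 4 arrays, miR-142-/- in red and WT in blue, with 1 point per array and the background threshold of 5.87 as a dashed line. Socs3 and Socs2 are higher on both Qa2+ arrays than on both Qa2- arrays, while the other members span at most 0.60 log2 units.

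Socs1 and Cish, the members most directly tied to common gamma chain cytokines, differed little. Socs1 read 9.12 in miR-142-/- Qa2+ and 9.31 in miR-142-/- Qa2- cells, and 9.22 in WT Qa2+ and 9.15 in WT Qa2- cells. These 4 values spanned 0.18 log2 units and followed neither stage nor genotype, and the average stage difference was -0.06 with a 95% interval from -0.31 to 0.19 (limma adjusted p = 0.77). Cish encodes CIS, an inhibitor of interleukin-2 and T cell receptor signalling whose gene is switched on by STAT5. It read 9.10 in miR-142-/- Qa2+ and 9.37 in miR-142-/- Qa2- cells, and 9.28 in WT Qa2+ and 9.04 in WT Qa2- cells. The stages lay in opposite order in the 2 genotypes, with differences of -0.27 in miR-142-/- and 0.24 in WT, and the average was -0.02 with an interval from -0.33 to 0.29 (limma adjusted p = 0.95). Both intervals exclude a rise of the size seen in Socs3, and they do not show that the genes were unaltered.

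Socs4 to Socs7 are the less studied members, linked mainly to receptor tyrosine kinases. Socs4, an inhibitor of epidermal growth factor receptor signalling, read 9.87 and 9.76 in miR-142-/- Qa2+ and Qa2- cells and 9.67 and 9.94 in WT Qa2+ and Qa2- cells. Socs5, which acts on the same receptor and on the interleukin-4 receptor, read 8.06 and 8.12 in miR-142-/- Qa2+ and Qa2- cells and 7.98 and 7.88 in WT Qa2+ and Qa2- cells. The stages overlapped for both genes. Socs6, an adaptor of Kit and insulin signalling, read 8.86 and 8.52 in miR-142-/- Qa2+ and Qa2- cells and 8.25 and 8.40 in WT Qa2+ and Qa2- cells. Socs7, which also binds insulin signalling adaptors, read 8.15 and 8.36 in miR-142-/- Qa2+ and Qa2- cells and 8.02 and 8.04 in WT Qa2+ and Qa2- cells. Average stage differences of these 4 genes lay between -0.12 (Socs7) and 0.10 (Socs6), with limma adjusted p-values from 0.49 to 0.92. The 95% intervals reached from -0.36 for Socs7 to 0.40 for Socs6.

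**Figure D2:**
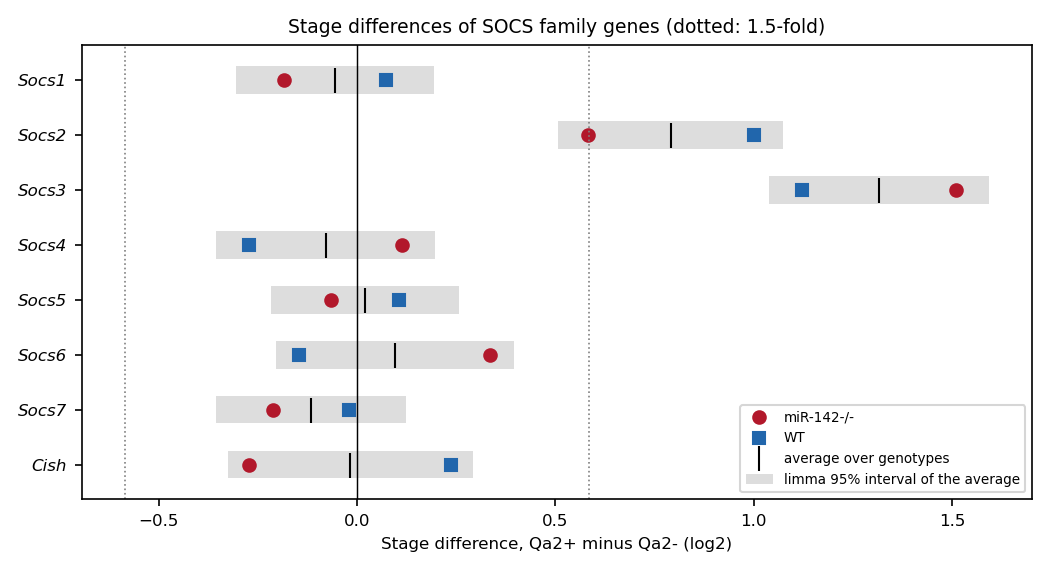
Qa2+ minus Qa2- log2 difference (horizontal axis) of each SOCS family gene, as a circle for miR-142-/- and a square for WT, with the average as a tick and its limma 95% interval as a grey bar. The intervals of Socs3 (1.04 to 1.59) and Socs2 (0.51 to 1.08) lie above 0 and those of the other 6 genes include 0.

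The choice of probe set mattered for the members that have several. Socs2 and Socs3 had 2 probe sets each, Socs6 had 3, and the other 5 members had 1 each, 12 in all. Of the 20 annotated probe sets nearest by ID to the Socs2 probe set with the highest mean, 0 named a gene on the chromosome of Socs2, and its nearest neighbours by ID were Gm16497 and Ntsr2. Whether it measures Socs2 was not tested. For the other Socs2 probe set the number was 19 of 20, with Cradd and Mrpl42 next to it. That probe set read 6.89 and 6.69 in miR-142-/- Qa2+ and Qa2- cells and 7.05 and 6.71 in WT Qa2+ and Qa2- cells. Both stages were in the same order as before but closer, with stage differences of 0.20 and 0.35, and Socs2 did not pass with it (average 0.27, limma adjusted p = 0.12, an alternative chosen after seeing the data).

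Socs6 showed the same arrangement. The Socs6 probe set with the highest mean lay by ID between the olfactory receptor genes Olfr470 and Olfr478, with 0 of 20 neighbours on the chromosome of Socs6. The next probe set, beside Dok6 by ID and with 11 of 20 such neighbours, read 8.36 and 8.38 in miR-142-/- Qa2+ and Qa2- cells and 8.13 and 8.05 in WT Qa2+ and Qa2- cells, so the arrays split by genotype and hardly by stage. The last Socs6 probe set was below background on every array (3.81 to 4.13). For Socs3 both probe sets had all 20 neighbours on its chromosome. The dimmer Socs3 probe set, for which the platform annotation lists no RefSeq transcript, read 6.48 and 6.33 in miR-142-/- Qa2+ and Qa2- cells and 6.82 and 6.52 in WT Qa2+ and Qa2- cells, with stage differences of 0.15 and 0.30. With the mean of each gene's probe sets Socs3 rose by 0.77 and Socs2 by 0.53 (limma adjusted p = 0.0040 and 0.021).

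**Figure D3:**
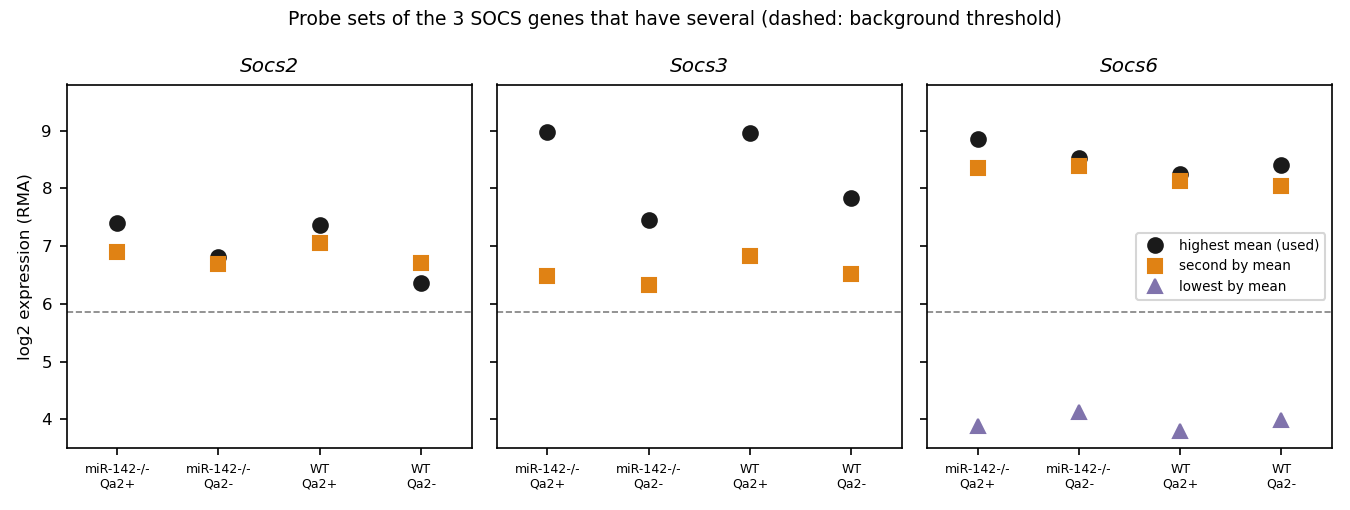
Log2 expression (vertical axis) on the 4 arrays for every probe set of Socs2, Socs3 and Socs6, black circles for the probe set used, orange squares for the second and violet triangles for the third by mean, with the background threshold of 5.87 dashed. The stage step of Socs3 (7.46 to 8.97 over the arrays) is in the brighter probe set, and the second Socs2 probe set spans only 6.69 to 7.05.

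Loss of miR-142 went with small differences in the family. In Qa2+ cells 1 of 8 members, Socs6, was at least 1.5-fold apart between miR-142-/- and WT, where 9.44% of all genes above background were. In Qa2- cells 0 of 8 members were, against 6.85% of all genes. With 1 array per group no replicate checks these differences and none carries a p-value. The median genotype difference of the members was 0.06 in Qa2+ and 0.20 in Qa2- cells, against 0.00 over all genes in both populations.

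Socs6 was 0.60 higher in miR-142-/- Qa2+ than in WT Qa2+ cells (1.52-fold) and 0.12 higher in Qa2- cells. With the probe set beside Dok6 the difference in Qa2+ cells was 0.23, and 0 members were 1.5-fold apart with it, after centring or after quantile normalization. Socs2 was 0.45 higher in miR-142-/- Qa2- than in WT Qa2- cells (1.37-fold) and differed by 0.04 in Qa2+ cells. With the other Socs2 probe set these differences were -0.01 in Qa2- and -0.16 in Qa2+ cells. Socs3 differed by 0.01 in Qa2+ cells and by -0.38 in Qa2- cells, where miR-142-/- read lower. Socs1, the reported target of the 5p strand in macrophages, differed by -0.10 in Qa2+ and 0.16 in Qa2- cells. Cish differed by -0.18 and 0.33, Socs4 by 0.20 and -0.18, Socs5 by 0.08 and 0.25, and Socs7 by 0.13 and 0.32 in Qa2+ and Qa2- cells. Both miR-142-/- arrays read above both WT arrays for Socs5, Socs6 and Socs7, a pattern found in 20.9% of all genes, and no member had both miR-142-/- arrays below both WT arrays, found in 21.9%. Receptor genes, which describe scatter at low signal, scattered between genotypes with a standard deviation of 0.18 (Qa2+) and 0.15 (Qa2-).

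**Figure D4:**
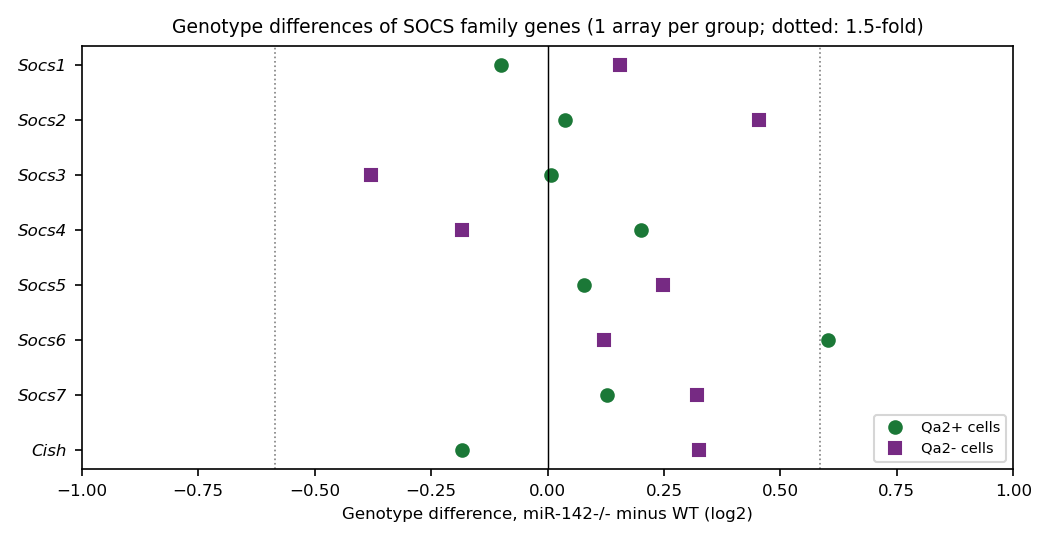
The miR-142-/- minus WT log2 difference (horizontal axis) of each SOCS family gene, circles for Qa2+ and squares for Qa2- cells, with 1.5-fold marked by dotted lines. Of the 16 points only Socs6 in Qa2+ cells (0.60) passes the line, and it does not with the probe set beside Dok6 (0.23).

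Stage differences within single genotypes are the values that the test averaged, so they are no further support for it. At least 1.5-fold apart were 1 of 8 members in miR-142-/- (Socs3) and 2 of 8 in WT (Socs3 and Socs2), where 6.29% and 6.39% of all genes above background were. The difference of the stage differences, miR-142-/- minus WT, was 0.39 for Socs3 and -0.42 for Socs2, and lay between -0.51 (Cish) and 0.48 (Socs6) over the family. With the probe sets that have ID neighbours on the gene's chromosome it was -0.15 for Socs2 and -0.10 for Socs6, where the sign turned, and with the mean of probe sets it was 0.12 for Socs3. No member reached 1.5-fold in this difference, against 3.42% of all genes, and the 4 arrays leave no degrees of freedom to test it.

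The genes whose profiles over the 4 arrays were most like those of Socs3 and Socs2, the members spanning at least 1 log2 unit (as 7.62% of all genes did), were ranked by the Euclidean distance between profiles centred on their mean. Among 12038 genes the closest to Socs2 were Il6ra, the interleukin-6 receptor gene (distance 0.08), App, the amyloid precursor gene (0.08), and Crim1, a transmembrane binding protein of bone morphogenetic proteins (0.10). Il6ra read 11.41 and 10.88 in miR-142-/- Qa2+ and Qa2- cells and 11.40 and 10.32 in WT Qa2+ and Qa2- cells, the same order as the probe set read for Socs2. The other Socs2 probe set has another order, with WT Qa2+ highest (7.05) and miR-142-/- Qa2- lowest (6.69), so this likeness holds for the first probe set only. The closest to Socs3 were the long non-coding RNA gene Lncpint (distance 0.16), Tnfsf8, which encodes CD30 ligand (0.29), and Gramd3 (0.30). Tnfsf8 read 9.40 and 8.10 in miR-142-/- Qa2+ and Qa2- cells and 9.19 and 8.22 in WT Qa2+ and Qa2- cells. With 4 arrays such likeness is a description only.

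Upstream of the SOCS genes, receptor genes moved in both directions between stages, while the STAT genes that passed limma rose. Of 19 cytokine receptor genes above background, 6 rose and 3 fell in Qa2+ cells (limma), where 4.77% of all genes rose and 8.35% fell. Ifngr1, the ligand-binding chain of the interferon gamma receptor, rose by 0.72 ± 0.10 (limma log2 difference ± SE, adjusted p = 0.0043), while Ifngr2, its signalling chain, fell by 0.50. Il6ra rose by 0.81, with 0.535 in miR-142-/- and 1.08 in WT, Il2ra, the high-affinity interleukin-2 receptor chain, by 0.70, and Il27ra by 0.51. The interleukin-12 receptor genes Il12rb1 and Il12rb2 fell by 0.59 and 1.01. Of 9 Janus kinase and STAT genes with a usable probe set 2 rose and 1 fell, beside the same shares over all genes. Stat3, which acts below interleukin-6, and Stat4, which acts below interleukin-12, rose by 0.41 and 0.55. The kinase gene Jak2 fell by 0.42.

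Genes listed as responding to STAT5, which switches on Cish, are set beside all genes, of which 4.77% rose and 8.35% fell. Of 14 STAT5 response genes 5 rose and 1 fell, among them the kinase gene Pim1 (0.79), the cytokine gene Osm (0.61) and Gzma (0.57), a granule protease gene, while the survival gene Bcl2l1 fell by 1.01. Of 13 STAT3 response genes 1, Il6ra, rose, which is near the share over all genes. The median stage differences averaged over genotypes were 0.22 and 0.00 for the STAT5 and STAT3 lists, against -0.06 over all genes. Of 9 SOCS targets outside the Janus kinases above background 2 rose, Smad7 (1.36), an inhibitor of transforming growth factor beta signalling, and the insulin-like growth factor receptor gene Igf1r (0.64).

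Among partners and relatives of SOCS proteins the counts were near the 8.35% of all genes that fell. Of 9 genes of the SOCS box ubiquitin ligase 1, Eloc, which encodes elongin C, fell by 0.62 (-0.66 in miR-142-/- and -0.59 in WT). Of 17 genes of other SOCS box proteins 2 fell, Asb2, an ankyrin repeat member, by 2.10 ± 0.13 (limma log2 difference ± SE, adjusted p = 0.00044) and Spsb1, a SPRY domain member, by 0.55. Asb2 read 6.48 and 8.32 in miR-142-/- Qa2+ and Qa2- cells and 6.21 and 8.56 in WT Qa2+ and Qa2- cells, so the stages were far apart in both genotypes. Of 14 other inhibitors of cytokine signalling 1, the phosphatase gene Dusp1, fell by 0.47 and 0 rose.

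**Figure D5:**
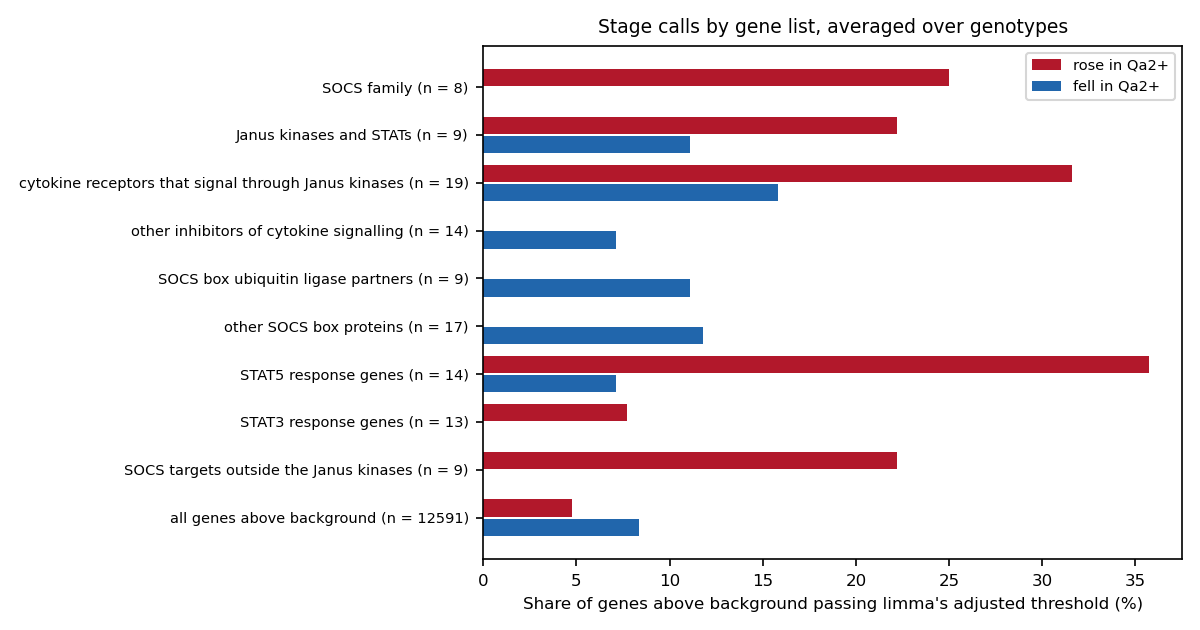
Share of genes above background (horizontal axis, percent) that rose (red) or fell (blue) in Qa2+ cells by limma, averaged over genotypes, for the SOCS family, each pathway list and all genes. In the family 2 of 8 genes rose and 0 fell, in the STAT5 list 5 of 14 rose and 1 fell, and over all 12591 genes 4.77% rose and 8.35% fell.

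Between genotypes 5 of 101 distinct pathway genes above background (4.95%) were at least 1.5-fold apart the same way in both populations, a share near the 4.90% of all genes, and 0 members of the family were. Il2rb, the chain shared by the interleukin-2 and interleukin-15 receptors, was lower in miR-142-/-, by a log2 difference of -1.37 in Qa2+ and -1.04 in Qa2- cells. Stat4 (-0.84 and -0.88) and Pim1 (-0.91 and -0.86 in Qa2+ and Qa2- cells) were also lower. Higher in miR-142-/- were Vegfa, a growth factor gene (1.58 and 0.94 in Qa2+ and Qa2- cells), and Igf1r (1.18 and 0.67). Cish, which STAT5 switches on as it does Pim1, differed by -0.18 in Qa2+ and 0.33 in Qa2- cells.

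Markers of other cells moved with the stage as well, and their counts stand beside the 4.77% of all genes that rose and the 8.35% that fell. Of 10 double-positive thymocyte markers above background 5 rose in Qa2+ cells and 0 fell, including Rag1 (2.31) and Dntt (1.29), and the summed linear level of that list was 6216 and 5448 in miR-142-/- Qa2+ and Qa2- cells and 5774 and 5262 in WT Qa2+ and Qa2- cells. Of 10 regulatory T cell markers 4 rose, including Foxp3 (1.91), and 1 fell, with summed levels of 10523 and 12407 in miR-142-/- and 12351 and 11027 in WT Qa2+ and Qa2- cells. Of 9 effector or recirculating T cell markers 4 rose and 0 fell, with summed levels of 2771 and 1652 in miR-142-/- and 7583 and 4757 in WT. Gzmb, in that list, did not pass but read 8.88 in WT Qa2- cells, against 6.02 in WT Qa2+ cells. In miR-142-/- it read 5.43 and 5.62 in Qa2+ and Qa2- cells. Of 8 CD8 single-positive markers 1, Ctsw, rose by 0.54 and 0 fell by limma. Within WT, without a test, 2 of them (Nkg7 and Klrd1) fell at least 1.5-fold and 0 rose. In miR-142-/- 2 of them rose that much and 0 fell. Of all genes above background 6.39% in WT and 6.29% in miR-142-/- were that far apart in either direction. Of 9 innate-like markers 1 rose and 4 fell, with summed levels of 8500 and 9751 in miR-142-/- and 8888 and 11524 in WT. Of the B cell list 6 of 7 and of the myeloid list 6 of 10 genes with a probe set were below background, and Ms4a1 and Adgre1 were below it on every array. Of the 4 myeloid genes above background 1 rose, the lysozyme gene Lyz2, by 1.15 (limma adjusted p = 0.0088). Lyz2 read 6.67 and 5.98 in miR-142-/- Qa2+ and Qa2- cells and 7.48 and 5.87 in WT Qa2+ and Qa2- cells, so both Qa2+ arrays were above both Qa2- arrays, as for Socs3 and Socs2. Il2ra stands in the regulatory T cell list as well as in the receptor and STAT5 lists, Il2rb in the innate-like and receptor lists, and Gzma in the effector and STAT5 lists. The part of these cells in the rise of Socs3 and Socs2 was not tested.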

How the data were processed

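Expression was measured on 4 arrays, 1 per group. The authors deposited 1 log2 value for each probe set and array. As tools, the submitters' processing notes list RMA and Partek (their versions are not given in the sources). RMA normalises arrays to one another and compresses differences of dim probe sets. The medians of the deposited arrays still differed, from log2 6.61 to 6.74. Of 35557 probe sets 21789 named 1 gene in the platform annotation, 1621 named several and 12147 none, and 21698 matched a GRCm38.p6 gene by Entrez ID. Pathway genes only on probe sets with several genes, such as Jak3 and Il2rg, were not analysed here.

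Genotype differences are miR-142-/- minus WT within a population and stage differences Qa2+ minus Qa2- within a genotype, without a test. The average stage difference was fitted in limma 3.58.1 (R 4.3.3), keeping genotype as a block because both populations of a genotype came from 1 pool (1 residual degree of freedom, prior of 6.94, two-sided, Benjamini-Hochberg). SEs therefore rest mostly on the spread pooled over all genes. The fit was also run on simulated data with the same noise in every gene. That run cannot tell how the p-values behave where genes differ in spread. Alternatives were centring, quantile normalization, the mean of probe sets, another probe set for Socs2 and Socs6, no filter on dim genes, no block and a variance trend.

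Members and gene lists were chosen with earlier results of these data known. Named genes are the members, genes that check labels, up to 4 list members per direction that passed limma or were 1.5-fold apart in both populations, markers read beside a result, and the 3 closest profiles. Genes of the probe sets next by ID and the values of other probe sets were added after seeing the data.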

Additional observations from a re-analysis of the deposited data

Results flagged for a closer look

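The stage difference had opposite signs in the 2 genotypes for Socs1, Socs4, Socs5, Socs6 and Cish, and the genotype difference had opposite signs in the 2 populations for Socs1, Socs3, Socs4 and Cish. With 1 array per group none of these contrasts was tested, and all were under 1.5-fold. The miR-142-/- minus WT difference of stage differences was -0.51 for Cish, whose stage difference was -0.27 in miR-142-/- and 0.24 in WT. It was 0.48 for Socs6 (0.34 in miR-142-/- and -0.15 in WT), where the probe set beside Dok6 gave stage differences of -0.02 and 0.08 and a difference between them of -0.10. It was 0.39 for Socs4 (0.11 in miR-142-/- and -0.27 in WT) and 0.39 for Socs3, whose genotype difference was 0.01 in Qa2+ and -0.38 in Qa2- cells. It was -0.26 for Socs1 and -0.17 for Socs5. Receptor genes had a standard deviation of 0.22 in the same quantity.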

How the results depend on the processing

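Over 7 refits, the Socs3 stage rise kept its direction (0.77 to 1.40) and passed in 6, with limma adjusted p from 5.3e-05 to 0.30. Socs2 (0.27 to 0.88) passed in 5, with limma adjusted p from 0.0012 to 0.34. These counts are not like for like. The refit with other Socs2 and Socs6 probe sets left the Socs3 values unchanged, and no refit used the dimmer Socs3 probe set alone. Without the genotype as a replicate block 0 members and 0 of 12591 genes passed limma (1544 genes at an unadjusted p under 0.05), with limma adjusted p of 0.30 for Socs3 and 0.34 for Socs2. With the Socs2 and Socs6 probe sets that have ID neighbours on their gene's chromosome, chosen after seeing the data, 1 member passed limma, 1 was 1.5-fold apart by stage in WT, and 0 by genotype in Qa2+ cells, in place of 2, 2 and 1. The count in Qa2+ cells was also 0 after centring, quantile normalization and averaging of probe sets. After centring or quantile normalization 2 members in place of 1 were 1.5-fold apart by stage in miR-142-/-. Leaving out the WT or the miR-142-/- pair leaves a value without a test, 1.51 or 1.12 for Socs3 and 0.58 or 1.00 for Socs2. No other member passed in any refit. The number of arrays and the low signal of Socs2 limit the precision.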
